A study of Mus musculus with 6 samples.

Results

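The genes described here encode the ligands, receptors, SMAD proteins, secreted antagonists and ID proteins of the TGF-beta and BMP pathways in cultured mouse bone marrow mesenchymal stromal cells (MSCs). They were chosen by gene symbol alone, as every entry of the count table named Bmp, Gdf or Smad with a number, Tgfb1 to Tgfb3, Inha, or starting with Bmpr, Tgfbr, Inhb or Acvr, together with Nog, Grem1, Fst, Chrd and Id1 to Id4. This gave 58 of the 23420 genes in the table. RNA-seq of polyadenylated RNA was available for 3 libraries labelled as control (Ctl MSC, the controls) and 3 labelled MSC-TPr. All cells were grown from the bone marrow of female C57BL/6 mice aged 6 to 8 weeks and transduced, at passage 5, with the AP2 retroviral construct, which carries eGFP. The construct was empty in Ctl MSC and coded for the thymoproteasome subunits Psmb9, Psmb10 and Psmb11 in MSC-TPr, so vector and eGFP were shared by both groups. The labels do not say whether the libraries of a group came from separate cultures or mice, and p-values therefore measure only the spread between these libraries, which may be technical.

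Ligands of this family bind pairs of type I and type II receptor kinases at the cell surface. The TGF-beta and activin branch then phosphorylates Smad2 and Smad3, and the BMP branch Smad1, Smad5 and Smad9, after which either set joins Smad4 and enters the nucleus. In MSCs the pathways are known for steering bone, cartilage, fat and contractile fates, with Id genes and Smad6 as classical BMP targets and Ctgf and Tgfbi as classical TGF-beta targets.

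The libraries were checked against their labels before any comparison. Between 16158756 and 22158887 reads were counted on genes, and 3 reads, taken as the smallest detectable amount, corresponded to 0.139 to 0.181 CPM (reads of a gene scaled to a common library size after TMM normalization), which covers counting error only. Among the transduced genes, Psmb11 had 1 to 6 reads per library, close to the smallest detectable amount. It measured 0.110 to 0.214 CPM in the controls and 0.0464 to 0.355 CPM in MSC-TPr. Neither Psmb9 nor Psmb10 was higher in every MSC-TPr library. The counts of these genes thus did not tell the labels apart. Which construct a library carried is known from the study's methods and the library labels only. The mean log2 level of 15 cell division genes was 6.86 in Ctl MSC 1, 6.81 in MSC-TPr 2 and 6.76 in MSC-TPr 3, beside 3.84 in Ctl MSC 2, 3.82 in Ctl MSC 3 and 3.83 in MSC-TPr 1. The libraries numbered 1 thus stood with the other label, both in these genes and on the first principal component (60.6% of the variance). On the second component (26.4%), all controls (−42.0, −18.3 and −17.5) lay on one side and all MSC-TPr libraries (41.0, 22.8 and 14.0) on the other. Every direction given is a direction between library labels, and the tests were run over all 6 libraries and over the 4 libraries numbered 2 and 3. Within those 4, both MSC-TPr libraries were high in the cell division genes and both controls low. Label and cell division level cannot be told apart in that comparison.

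Of the 10 MSC markers, Cd44 measured 142 to 536 CPM, Eng 142 to 204 CPM, Ly6a 138 to 630.2 CPM, Pdgfra 30.7 to 188 CPM, Pdgfrb 125 to 328 CPM, Cxcl12 67.9 to 1408 CPM, Vcam1 36.2 to 82.7 CPM and Lepr 0.441 to 2.13 CPM, all with overlap between the labels. Nt5e (CD73) measured 11.4, 20.2 and 17.4 CPM in the controls, then 2.66, 4.20 and 5.24 CPM, lower in every MSC-TPr library. The log2 fold change of Nt5e was −2.02 over 6 libraries (edgeR, adjusted p = 0.079; DESeq2, adjusted p = 2.04e-05) and −1.99 over 4 (edgeR, adjusted p = 0.00081), and its part in the results was not tested. Thy1 (CD90) had no read in 5 libraries and 0.0604 CPM in Ctl MSC 1. Ptprc (CD45) reached at most 0.0928 CPM and Pecam1 (CD31) at most 0.221 CPM. The 8 haematopoietic markers summed to 2.84 to 10.4 CPM in the controls and 1.95 to 14.2 CPM in MSC-TPr, with Cd68 the most abundant of them on average (0.789 to 14.2 CPM), and the 4 endothelial markers to 0.785 to 3.09 CPM and 1.62 to 3.32 CPM. Fewer cells of a type and less RNA per cell cannot be told apart in such bulk samples.

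Receptors for both branches and their SMADs were among the most abundant genes of the pathway. On a scale per length (RPKM over merged exons, which alone allows genes to be compared), Bmpr1a, a type I receptor for BMPs, had the highest mean level, 32.4 RPKM, with a range over the 6 libraries of 27.9 to 35.2. Smad4, the SMAD shared by both branches, was next at 29.9 RPKM (24.8 to 36.4). Gdf15, a stress-induced distant relative of the family, followed at 23.8 RPKM (8.25 to 44.1). Neighbours in this order overlapped. Id3, a helix-loop-helix inhibitor of differentiation with a mean of 18.5 RPKM (4.64 to 45.6), overlapped with each of them. Tgfbr2, the type II receptor for TGF-beta, had 15.6 RPKM (9.51 to 23.5). It overlapped with Gdf15 and Id3 but lay below the ranges of Bmpr1a and Smad4.

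At the other end, 8 members had no read in any library, namely Bmp7, Bmp15, Gdf1, Gdf3, Gdf5, Gdf10, Inhbc and the BMP antagonist Nog, which allows levels of up to 0.139 to 0.181 CPM. Gdf1 lies wholly within exons of Cers1 on the same strand, so its reads could not be assigned and its 0 carries no information. A further 13 members had some reads but did not pass the filter on low counts, and 37 were tested.

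**Figure D1:**
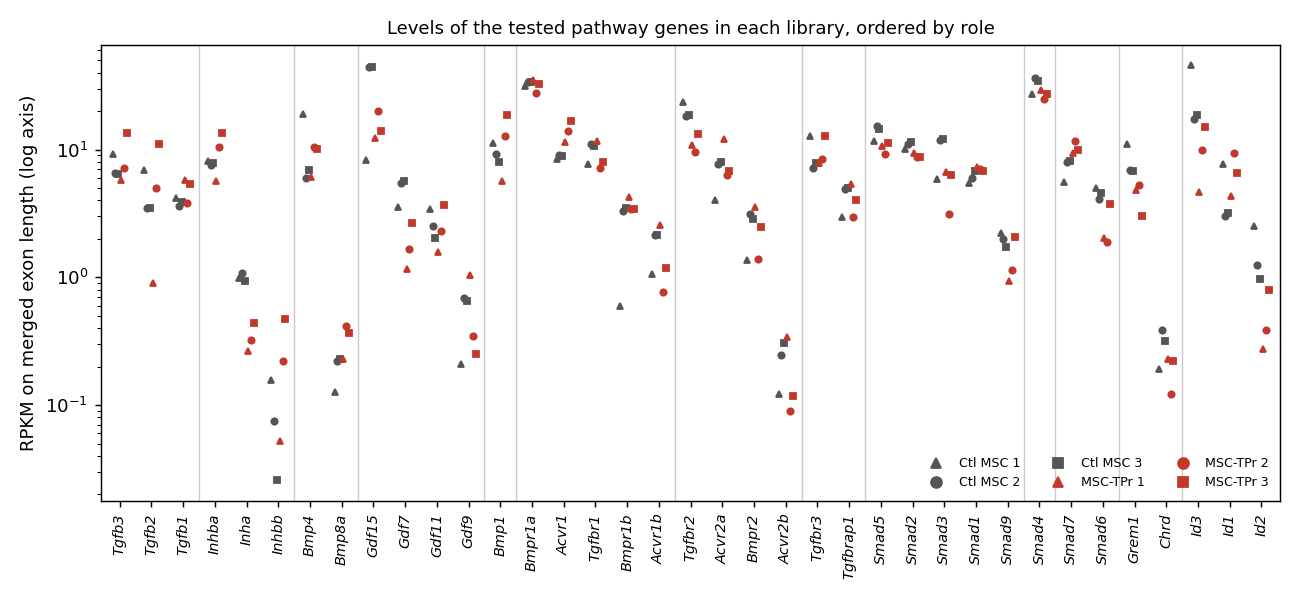
Level of the 37 tested pathway genes in each library, in RPKM on a log axis, ordered by role, with 1 symbol per library (grey Ctl MSC, red MSC-TPr; triangle, circle and square for the libraries numbered 1, 2 and 3). The 6 points of Bmpr1a lie within 27.9 to 35.2 RPKM, while those of Id3 run from 4.64 to 45.6 RPKM.

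Over all 6 libraries no member passed the test for a difference between the labels. A gene was called where edgeR's quasi-likelihood test gave an adjusted p (Benjamini-Hochberg, all genes tested) under 0.05 and its log2 fold change was 0.5 or more in size, and 0.426% of the 11974 genes tested were called (0.0251% as higher in MSC-TPr and 0.401% as lower). At an unadjusted p under 0.05, 2 members were higher and 8 lower of 37, where 15.0% of all genes reached that level, 6.81% as higher and 8.23% as lower. DESeq2 called Acvr1 as higher and Tgfbr2 and Gdf7 as lower, beside 4.07% of the 16763 genes it gave a p-value (1.46% higher, 2.62% lower). Some of those genes had no adjusted p and could not be called, so the share among genes that could be called was higher. The median log2 fold change of the members tested was −0.073 and that of all genes 0.012.

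Over the 4 libraries numbered 2 and 3, edgeR called 7 members higher and 11 lower of 38 tested (47.4%), where 40.0% of all genes were called, 20.6% as higher and 19.4% as lower. Of these 18 members, 6 also had the same direction from Ctl MSC 1 to MSC-TPr 1, beside 29.8% of all genes called over 4 libraries. They were Acvr1, Bmp6, Gdf7, Inha, Smad5 and Tgfbr2, of which Bmp6 did not pass the filter over 6 libraries. Which members were called thus depended on the libraries used. The common dispersion, edgeR's estimate of the spread between libraries of a label, was 0.124 over 6 libraries and 0.0168 over 4. Ctl MSC 2 and 3 were closer to each other than any other 2 libraries (chi-square per gene 4.97, beside 52.6 for MSC-TPr 2 and 3). Adjusted p over 4 libraries rests on that small spread.

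**Figure D2:**
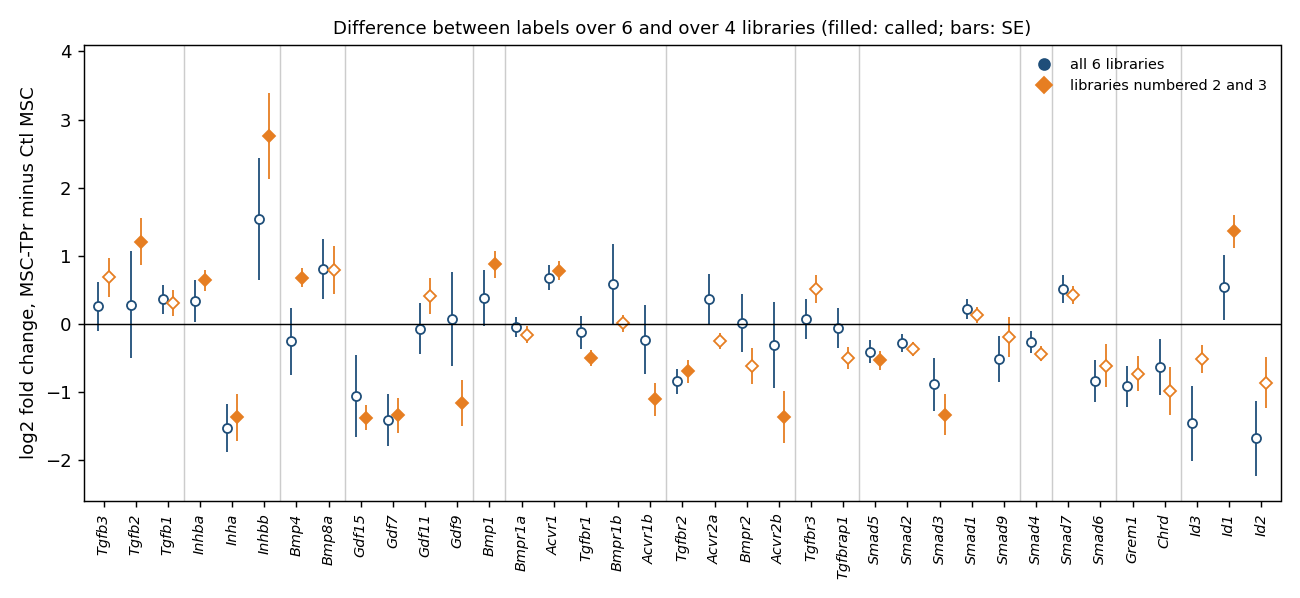
Log2 fold change of MSC-TPr minus Ctl MSC for the tested members over all 6 libraries and over the 4 libraries numbered 2 and 3, with standard errors as bars and filled symbols for genes called. No symbol of the 6-library fit is filled, whereas filled symbols of the 4-library fit lie on both sides of 0.

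In 13 of the 37 tested members (35.1%) all MSC-TPr libraries lay on one side of all controls, where 22.6% of all genes tested showed such an order (10.6% higher and 12.1% lower in MSC-TPr). Of these members 4 were higher and 9 lower, and Bmp8a and Smad1, both among the higher ones, overlapped when upper quartile scaling replaced TMM. A gene low in both groups cannot pass the filter, so this count describes the members that passed and is no test. With the libraries numbered 2 and 3 alone, 33 of the 37 did not overlap, where 77.3% of all genes tested did not.

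Tgfbr2, on chromosome 9 from 116084293 to 116175360 (mm10), had the lowest p of the members. It measured 192, 149 and 152 CPM in the controls numbered 1, 2 and 3, then 88.8, 77.8 and 108 CPM in the MSC-TPr libraries of the same numbers, the order used for every gene that follows. All MSC-TPr libraries were below the lowest control, and the means were 165 ± 24.0 and 91.4 ± 15.1 CPM (SD, n = 3 each). Its log2 fold change was −0.85 over 6 libraries (edgeR, SE 0.19, adjusted p = 0.132; DESeq2, adjusted p = 0.0101), and −0.70 over 4 (edgeR, SE 0.17, adjusted p = 0.0197). Tgfbr1, its type I partner, overlapped between the labels at 50.4 to 71.8 CPM and 47.2 to 76.5 CPM. Tgfbr1 had a log2 fold change of −0.12 over 6 (edgeR, adjusted p = 0.853), and was called lower over 4 with −0.50 (edgeR, adjusted p = 0.0168). The co-receptor Tgfbr3, which presents ligand to Tgfbr2, measured 83.1, 47.2 and 51.2 CPM in the controls, then 51.1, 55.7 and 83.9 CPM, with Ctl MSC 1 and MSC-TPr 3 highest. Tgfbrap1, which encodes a protein that associates with TGF-beta receptors, measured 32.4, 53.6 and 55.3 CPM in the controls, then 58.7, 32.8 and 44.0 CPM, lowest in Ctl MSC 1 and highest in MSC-TPr 1.

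The type I receptors of the BMP and activin branches did not share an order. Acvr1, which serves BMP-type ligands and lies on chromosome 2 from 58388644 to 58567157, measured 40.8, 43.7 and 42.9 CPM in the controls, then 55.5, 67.0 and 81.4 CPM in MSC-TPr. The controls lay close together and all MSC-TPr values above them. Its log2 fold change was 0.68 over 6 libraries (edgeR, SE 0.18, adjusted p = 0.183; DESeq2, adjusted p = 0.0391), and 0.78 over 4 (edgeR, SE 0.14, adjusted p = 0.00618). Bmpr1a measured 198, 217 and 214 CPM, then 223, 177 and 207 CPM, with log2 fold changes of −0.049 over 6 (SE 0.15) and −0.16 over 4. Bmpr1b, its close relative, had 3.56 CPM in Ctl MSC 1 and 19.8 to 25.6 CPM in the other libraries, so that a single control stood apart. Acvr1b, the type I receptor for activin, measured 4.71, 9.40 and 9.43 CPM, then 11.4, 3.37 and 5.24 CPM, with Ctl MSC 1, MSC-TPr 2 and MSC-TPr 3 low. It was called lower over 4 libraries (log2 fold change −1.11, edgeR, adjusted p = 0.0132) but not over 6 (−0.23, edgeR, adjusted p = 0.864). Acvrl1 and Acvr1c, the remaining type I receptors, had at most 1 and 1 reads in a library.

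Among the type II receptors, Acvr2a and Bmpr2, which bind activins and BMPs, overlapped between the labels. Acvr2a measured 22.8, 44.0 and 45.2 CPM, then 69.3, 36.0 and 38.5 CPM, with 7.84% of its exon length shared with Orc4 on the opposite strand. Bmpr2 measured 24.6 to 55.9 CPM in the controls and 25.0 to 63.3 CPM in MSC-TPr. In both genes Ctl MSC 1 was the lowest and MSC-TPr 1 the highest library, and the direction of both turned with the libraries used. Acvr2a had log2 fold changes of 0.36 over 6 and −0.26 over 4 (edgeR, adjusted p = 0.696 and 0.114). For Bmpr2 they were 0.012 and −0.62 (edgeR, adjusted p = 0.993 and 0.1). Acvr2b, another activin receptor, reached at most 1.33 CPM and was called lower over 4 libraries (−1.37, edgeR, adjusted p = 0.0299), as was Tgfbr2, but not over 6 (−0.31, edgeR, adjusted p = 0.854).

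Smad3 had the largest log2 fold change of the receptor-regulated SMADs over 4 libraries, and the others differed less. It measured 32.6, 66.0 and 67.1 CPM, then 37.0, 17.5 and 34.8 CPM, where Ctl MSC 1 fell among the MSC-TPr libraries. Smad3 was called lower over 4 libraries (log2 fold change −1.34, edgeR, SE 0.30, adjusted p = 0.0148) but not over 6 (−0.89, edgeR, SE 0.39, adjusted p = 0.344). Smad2, its partner in the TGF-beta branch, measured 89.2, 98.0 and 101 CPM, then 82.1, 76.6 and 76.9 CPM, without overlap and with a log2 fold change of −0.29 over 6 (edgeR, adjusted p = 0.366) and −0.37 over 4 (edgeR, adjusted p = 0.0334), under the fold change minimum. In the BMP branch, Smad5 measured 86.0, 113 and 108 CPM, then 79.2, 68.4 and 84.1 CPM. It did not overlap either, with log2 fold changes of −0.41 over 6 (edgeR, adjusted p = 0.328) and −0.54 over 4 (edgeR, adjusted p = 0.0228). Smad1 measured 34.3, 37.6 and 42.2 CPM, then 45.5, 44.1 and 42.9 CPM, a narrow order that was lost with upper quartile scaling. Smad9 overlapped at 9.27 to 11.96 and 5.04 to 11.2 CPM, as did the shared Smad4 with 100.4, 135 and 129 CPM, then 108, 92.2 and 102 CPM.

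The inhibitory SMADs, which act in negative feedback, lay in opposite orders. Smad6, which acts mainly on BMP signalling and lies on chromosome 9 from 63953076 to 64022059, measured 16.1, 13.1 and 14.7 CPM, then 6.48, 6.03 and 11.9 CPM. Smad7, which acts on both branches, measured 25.4, 36.0 and 37.1 CPM, then 42.4, 52.8 and 45.0 CPM. Neither gene overlapped between the labels. Over 6 libraries the log2 fold change was −0.84 for Smad6 (edgeR, SE 0.31, adjusted p = 0.282) and 0.51 for Smad7 (edgeR, SE 0.20, adjusted p = 0.31). Neither was called over 4, with −0.62 (edgeR, adjusted p = 0.152) and 0.42 (edgeR, adjusted p = 0.04), the latter under the fold change minimum.

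Of the ID genes, which are dominant-negative partners of helix-loop-helix factors, Id2 and Id3 were lower in every MSC-TPr library and Id1 was not. Id3, on chromosome 4 from 136143497 to 136145755, measured 81.7, 31.1 and 33.3 CPM, then 8.30, 17.7 and 27.0 CPM. Ctl MSC 1 was highest and MSC-TPr 1 lowest. Its log2 fold change was −1.46 over 6 libraries (edgeR, SE 0.55, adjusted p = 0.285) and −0.52 over 4 (edgeR, SE 0.21, adjusted p = 0.0868). Id2 measured 6.16, 3.04 and 2.37 CPM, then 0.664, 0.946 and 1.95 CPM, with −1.68 over 6 (edgeR, SE 0.55, adjusted p = 0.243) and −0.87 over 4 (edgeR, adjusted p = 0.106). Id1 measured 9.002, 3.52 and 3.70 CPM, then 4.98, 10.9 and 7.61 CPM. Its 3 highest values were those of MSC-TPr 2, Ctl MSC 1 and MSC-TPr 3, the libraries with high cell division genes, and their part in the result was not tested. Id1 was called higher over 4 libraries (log2 fold change 1.36, edgeR, SE 0.24, adjusted p = 0.00636) but not over 6 (0.54, edgeR, adjusted p = 0.645). Id4 had 6 to 13 reads per control library and 1 to 3 per MSC-TPr library, too few to be tested.

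**Figure D3:**
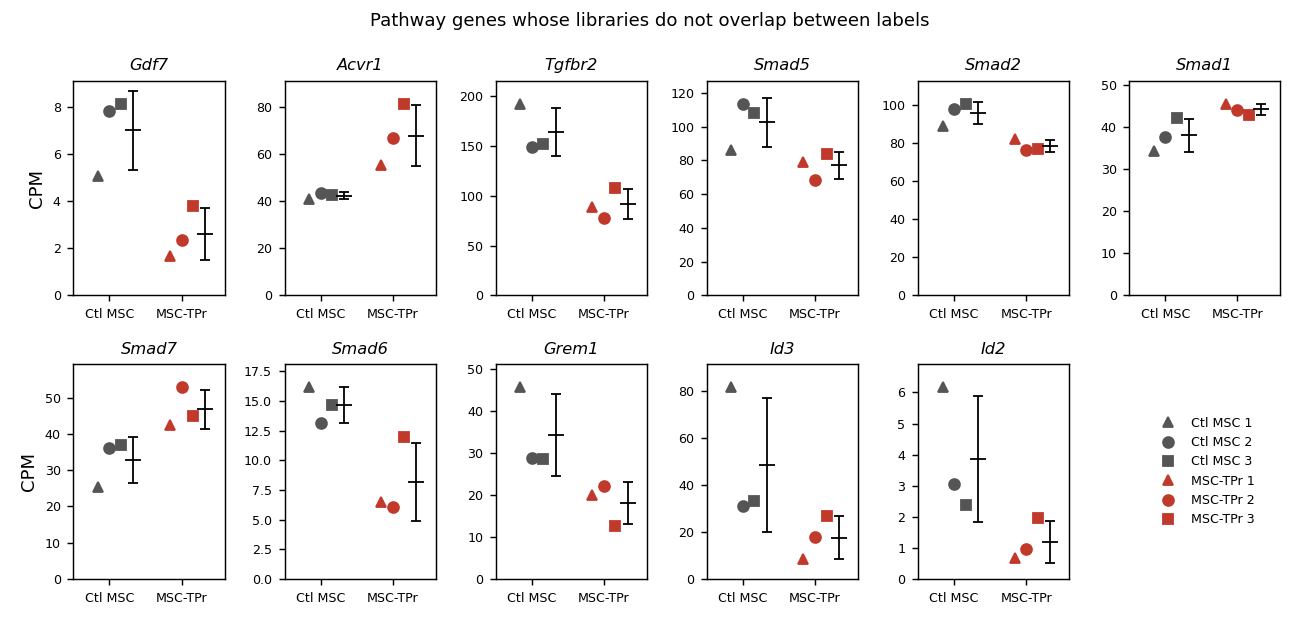
CPM of the 11 members with a mean of at least 1 CPM whose libraries do not overlap between the labels, with 1 symbol per library (triangle, circle and square for the libraries numbered 1, 2 and 3) and the mean and SD of 3 libraries beside each group. Acvr1, Smad1 and Smad7 are higher in MSC-TPr and the other 8 lower, with the order of Smad1 lost under upper quartile scaling. Ctl MSC 1 stands far above the other controls in Id3 (81.7 against 31.1 and 33.3 CPM).

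The secreted antagonists were represented mainly by Grem1 (gremlin), which binds BMPs outside the cell. Grem1, on chromosome 2 from 113746164 to 113758646, measured 45.6, 28.8 and 28.4 CPM, then 19.9, 22.0 and 12.5 CPM, without overlap. Its log2 fold change was −0.92 over 6 libraries (edgeR, SE 0.30, adjusted p = 0.242) and −0.73 over 4 (edgeR, SE 0.26, adjusted p = 0.0608). Fst (follistatin), which binds activin, had 105, 3 and 1 reads in the controls, then 0, 4 and 10 reads, so that nearly all came from Ctl MSC 1. It was not tested. Chrd (chordin), another BMP antagonist, measured 1.21 to 2.40 CPM in the controls and 0.769 to 1.44 CPM in MSC-TPr.

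Upstream sequences are shown for 4 of the members lower in every MSC-TPr library, those with a single RefSeq start whose 250 bases before it (GRCm38.p6) held no annotated exon. All lie on the minus strand and are printed 5′ to 3′ in the direction of the gene. Capitals mark the letters CAGAC on either strand (GTCTG on the other), a core that SMAD complexes are known to bind, and GGCGCC, its own reverse complement, known from BMP-responsive elements.
Tgfbr2, chr9:116175364-116175613: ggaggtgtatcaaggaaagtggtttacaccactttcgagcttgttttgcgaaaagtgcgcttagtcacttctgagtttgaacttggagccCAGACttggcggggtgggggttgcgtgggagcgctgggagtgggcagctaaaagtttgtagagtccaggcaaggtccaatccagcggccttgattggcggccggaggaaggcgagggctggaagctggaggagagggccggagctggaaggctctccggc
Grem1, chr2:113758649-113758898: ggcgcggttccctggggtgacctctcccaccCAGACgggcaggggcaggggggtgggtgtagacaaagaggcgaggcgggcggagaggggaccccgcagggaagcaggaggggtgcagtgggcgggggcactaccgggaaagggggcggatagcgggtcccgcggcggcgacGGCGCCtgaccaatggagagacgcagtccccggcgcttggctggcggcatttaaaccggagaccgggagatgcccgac
Smad6, chr9:64022060-64022309: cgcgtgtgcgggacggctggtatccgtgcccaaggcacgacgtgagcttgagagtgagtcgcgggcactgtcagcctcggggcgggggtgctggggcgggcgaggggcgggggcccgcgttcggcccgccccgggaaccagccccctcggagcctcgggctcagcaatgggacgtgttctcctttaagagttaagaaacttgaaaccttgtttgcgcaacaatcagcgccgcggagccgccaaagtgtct
Gdf7, chr12:8301955-8302204: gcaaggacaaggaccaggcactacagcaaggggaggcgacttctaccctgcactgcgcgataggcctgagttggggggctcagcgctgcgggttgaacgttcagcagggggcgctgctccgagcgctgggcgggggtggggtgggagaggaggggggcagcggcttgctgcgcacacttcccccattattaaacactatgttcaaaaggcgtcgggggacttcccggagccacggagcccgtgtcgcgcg
CAGAC was found 1 time upstream of Tgfbr2 and 1 time upstream of Grem1, and GGCGCC 1 time upstream of Grem1. Neither was in the windows of Smad6 and Gdf7. Of the 41 members with a RefSeq window, 17 (41.5%) held CAGAC and 9 (22.0%) held GGCGCC, where the shares over 27025 genes were 42.1% and 9.54%. A match of letters is a description of the window and not a binding site.

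Each TGF-beta ligand gene overlapped between the labels. Tgfb2 ranged most, with 40.4, 20.1 and 20.3 CPM, then 5.26, 29.2 and 63.6 CPM, and its lowest and highest values, 12.1-fold apart, both belonged to MSC-TPr. It was called higher over 4 libraries (log2 fold change 1.21, edgeR, SE 0.35, adjusted p = 0.0329) but not over 6 (0.28, edgeR, SE 0.79, adjusted p = 0.896). Tgfb3 measured 31.1, 22.1 and 21.7 CPM, then 19.4, 24.1 and 45.8 CPM. Tgfb1, the form most often studied, measured 18.2 to 21.1 CPM in the controls and 19.1 to 29.1 CPM in MSC-TPr. Its log2 fold changes were 0.36 over 6 (edgeR, adjusted p = 0.485) and 0.30 over 4 (edgeR, adjusted p = 0.238).

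Among the activin and inhibin subunits, Inhba, which forms activin A, was the main form, and Inha, the subunit that makes an inhibin, was scarce. Inhba measured 52.4, 48.2 and 50.1 CPM, then 36.3, 66.4 and 86.4 CPM, and MSC-TPr 1 lay below all controls. It was called higher over 4 libraries (log2 fold change 0.64, edgeR, adjusted p = 0.0187) but not over 6 (0.33, edgeR, adjusted p = 0.666). Inha had 24 to 30 reads per control library and 7 to 14 per MSC-TPr library, that is 1.45, 1.602 and 1.38 CPM, then 0.388, 0.473 and 0.649 CPM. These did not overlap, and the log2 fold change was −1.53 over 6 (edgeR, SE 0.36, adjusted p = 0.145) and −1.38 over 4 (edgeR, SE 0.34, adjusted p = 0.0203). Inhbb, the subunit of activin B, reached 1.99 CPM in MSC-TPr 3 and was called higher over 4 libraries (log2 fold change 2.76, edgeR, adjusted p = 0.0152) but not over 6 (1.54, edgeR, adjusted p = 0.478).

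Of the BMP ligands, Bmp4, an inducer of bone and mesoderm, was the most abundant. It measured 43.0, 13.6 and 15.6 CPM, then 13.8, 23.5 and 22.9 CPM, highest in Ctl MSC 1. Its direction turned with the libraries, with a log2 fold change of −0.26 over 6 (edgeR, SE 0.49, adjusted p = 0.844) and 0.67 over 4 (edgeR, SE 0.14, adjusted p = 0.011). Bmp8a, next per length, measured 0.302, 0.534 and 0.552 CPM, then 0.554, 1.01 and 0.881 CPM. Bmp6, tested over 4 libraries only, was called lower there (log2 fold change −1.63, edgeR, adjusted p = 0.00831). It did not pass the filter on low counts over 6 libraries, and may have passed over 4 through the controls alone. Its call is therefore no support for a difference. Bmp1, a procollagen protease that carries the family name without being a ligand, measured 100.1, 81.8 and 70.4 CPM, then 50.5, 113 and 165 CPM. MSC-TPr 1 held its lowest value and MSC-TPr 3 its highest, and it was called higher over 4 libraries (0.87, edgeR, adjusted p = 0.0154) but not over 6 (0.38, edgeR, adjusted p = 0.714).

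Gdf15 and Gdf7 were the highest of the GDF ligands per length. Gdf15 measured 15.3, 81.7 and 81.5 CPM, then 22.9, 36.9 and 25.8 CPM, which set Ctl MSC 2 and 3 above the other libraries. It was called lower over 4 libraries (log2 fold change −1.38, edgeR, SE 0.18, adjusted p = 0.00252) but not over 6 (−1.06, edgeR, SE 0.60, adjusted p = 0.46). Gdf7, a BMP-like ligand, measured 5.08, 7.80 and 8.11 CPM, then 1.66, 2.37 and 3.80 CPM, and its groups did not overlap. Its log2 fold change was −1.42 over 6 libraries (edgeR, SE 0.38, adjusted p = 0.185; DESeq2, adjusted p = 0.0235) and −1.35 over 4 (edgeR, SE 0.26, adjusted p = 0.00852). Gdf9 measured 0.423, 1.39 and 1.32 CPM, then 2.104, 0.710 and 0.510 CPM, highest in MSC-TPr 1, and was called lower over 4 libraries (−1.16, edgeR, adjusted p = 0.0348) but not over 6 (0.072, edgeR, adjusted p = 0.973). Gdf11 overlapped and turned from −0.073 over 6 to 0.41 over 4 on the log2 scale (edgeR, adjusted p = 0.945 and 0.245), with 8.27 to 13.9 CPM in the controls and 6.37 to 15.1 CPM in MSC-TPr.

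Other genes of the pathway were taken from lists of storage proteins, modulators, regulators and response genes, of which 54 of 69 could be tested. Over 6 libraries edgeR called 0 of them, with 4 higher and 5 lower at an unadjusted p under 0.05, beside 6.81% and 8.23% of all genes. DESeq2 called 3 as lower, namely Fbn2, Tll1 and Tgif2, beside 2.62% of all genes it gave a p-value. Over 4 libraries, 23 were called higher and 7 lower of 55 tested, beside 20.6% and 19.4% of all genes. The 11 TGF-beta response genes gave 8 of the higher calls and 1 lower call over 4 libraries, with a median log2 fold change of 1.71, and 0 calls over 6, with a median of 0.49.

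Fn1 (fibronectin) and Col1a1 (a collagen I chain) were the most abundant of these response genes. Fn1 measured 2465, 8960.3 and 8204 CPM, then 5148, 3863 and 6178 CPM, lowest in Ctl MSC 1. Col1a1 measured 3250.2, 660.03 and 639 CPM, then 354, 3052 and 6916 CPM. A further 2 classical targets are given, chosen after their values were seen. Ctgf, a matricellular protein, measured 604, 137 and 139 CPM, then 71.6, 1750.1 and 1647 CPM, with 23.2% of its exon length under an opposite-strand transcript. Tgfbi, an adhesive matrix protein, measured 243, 37.2 and 38.6 CPM, then 26.6, 147 and 273 CPM. In Col1a1 and these 2 genes, Ctl MSC 1, MSC-TPr 2 and MSC-TPr 3 were the high libraries, as they were for the cell division genes, whose part in the result was not tested. Over 6 libraries the log2 fold change was 1.98 for Ctgf (edgeR, adjusted p = 0.469) and 0.49 for Tgfbi (edgeR, adjusted p = 0.858). Over 4 libraries both were called higher, with 3.63 for Ctgf (edgeR, adjusted p = 8.81e-05) and 2.47 for Tgfbi (edgeR, adjusted p = 0.0017).

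**Figure D4:**
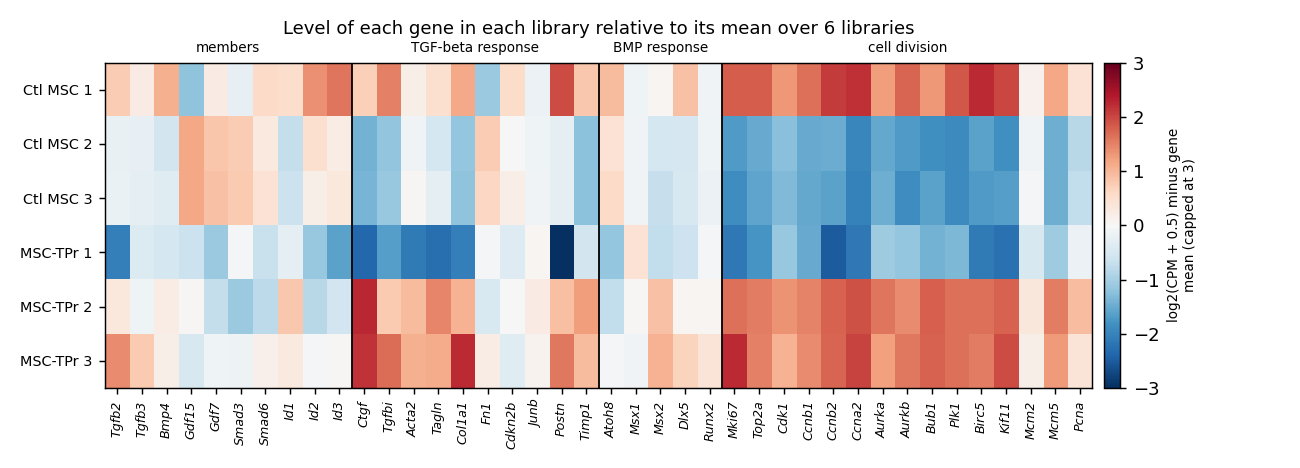
Level of each gene in each library as log2(CPM + 0.5) minus the mean of that gene over the 6 libraries, with colours capped at 3. Shown are 10 members chosen by hand, a selection of TGF-beta and BMP response genes, and cell division genes. Acvr1 and Smad7, which were higher in every MSC-TPr library, are not among these members. Ctgf and Tgfbi are high in Ctl MSC 1, MSC-TPr 2 and MSC-TPr 3, as the cell division genes are, whereas Id2, Id3 and Gdf7 are lower in all 3 MSC-TPr libraries than in any control.

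The BMP response genes gave 2 higher calls and 1 lower call of 6 tested over 4 libraries, beside 20.6% and 19.4% of all genes. Atoh8, a BMP-induced helix-loop-helix factor, measured 4.29, 2.88 and 3.20 CPM, then 0.609, 1.01 and 1.90 CPM. It did not overlap, and its log2 fold change was −1.54 over 6 libraries (edgeR, SE 0.46, adjusted p = 0.215) and −1.03 over 4 (edgeR, adjusted p = 0.0492). Runx2, the osteoblast factor, measured 41.5, 40.5 and 39.5 CPM, then 43.1, 46.1 and 58.8 CPM. It was higher in every MSC-TPr library, but MSC-TPr 1 lay barely above Ctl MSC 1.

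Of the intracellular regulators, Skil and Tgif2, both SMAD co-repressors, lay in opposite orders without overlap. Skil measured 46.2, 69.9 and 60.9 CPM, then 84.9, 77.7 and 88.0 CPM. Tgif2 measured 7.98, 11.002 and 11.03 CPM, then 6.37, 2.96 and 2.55 CPM, with a log2 fold change of −1.34 over 6 libraries (edgeR, SE 0.40, adjusted p = 0.215; DESeq2, adjusted p = 0.0491). It was called lower over 4 (edgeR, adjusted p = 0.000783), and 56.7% of its exon length lies under an opposite-strand transcript. Among secreted modulators, Tll1, a protease that cleaves chordin, measured 1.45, 2.51 and 2.87 CPM, then 0.111, 0.355 and 0.835 CPM. Its value in MSC-TPr 1 lay under the smallest detectable amount of that library, 0.166 CPM, so the size of its fold change is uncertain. The log2 fold change of Tll1 was −2.35 over 6 libraries (edgeR, adjusted p = 0.201; DESeq2, adjusted p = 0.0273) and −2.11 over 4 (edgeR, adjusted p = 0.00782). Fbn1 (fibrillin-1), which stores latent TGF-beta in the matrix, measured 108, 109 and 95.9 CPM, then 109.8, 276 and 488 CPM, with MSC-TPr 1 barely above the controls and 20.1% of its exon length shared with an opposite-strand gene. The remaining ligands and receptors of the family, such as Nodal, Mstn and Amh, did not exceed 1.15 CPM in any library, the value of Lefty1.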

How the data were processed

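Per the study's methods, reads of each library were aligned to mm10 and counted on genes by the authors with Htseq-count, and the counts were deposited without normalization. The submitters' processing notes name Trimmomatic 0.35 and TopHat2 2.1.0. The study's methods name a stranded library kit, but whether counting used strand is not given in the sources used here. The table also lists 5 entries for reads not assigned to a gene, 13.8% to 20.8% of the reads listed per library, which were left out. The analysis used edgeR 4.0.16 under R 4.3.3, with filterByExpr, TMM scaling and a quasi-likelihood test on the label alone, adjusted by Benjamini-Hochberg over the 11974 genes that passed. The standard error is the log2 fold change divided by the square root of F. DESeq2 1.42.0 was an alternative. Both were checked on simulated counts with known changes, in which no library stood with the other label, so the check does not cover that feature of these data. RPKM used merged exon lengths of GENCODE (mm10 coordinates), in which 58 of 58 members were matched by symbol. Members, lists and tests were chosen with earlier results of these data known. Values in every library are given for members called over 6 libraries, members of at least 1 CPM that do not overlap between labels, members called over libraries 2 and 3 with a log2 fold change of at least 1 and a mean of at least 1 CPM, and the 2 highest per role in RPKM; of the pathway lists, those not overlapping or highest could be named. The alternatives were other normalizations, filters and thresholds, the replicate number as a block, libraries 2 and 3 only, and leaving out each library. Values of 1 gene of the pathway lists are not reported here.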

Additional observations from a re-analysis of the deposited data

How the results depend on the processing

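The same-numbered libraries of the labels deviated in opposite directions from their group means (correlations across genes of −0.77, −0.62 and −0.62), so the numbers did not pair them. With the replicate block, 0 genes were called higher and 0 lower in the whole table, where 3 and 48 were called without it, and the log2 fold changes of Gdf9 and Tgfb2 turned to −0.10 and −0.088. DESeq2 called 244 genes higher and 439 lower, 1 member higher and 2 lower, and 3 genes of the pathway lists lower. A minimum of 10 counts in every library left 29 genes called lower, with fewer genes tested.

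Over libraries 2 and 3 only, 2498 genes were called higher and 2356 lower, 7 members higher and 11 lower, and 23 pathway list genes higher and 7 lower. The median log2 fold change of the members was then −0.37, 33 of 37 did not overlap between labels (77.3% of all genes), and 5 of 37 members changed direction, namely Acvr2a (−0.26), Bmp4 (0.67), Gdf9 (−1.16), Bmpr2 (−0.62) and Gdf11 (0.41). The cause was not tested.

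Leaving out 1 library at a time gave 0 to 11 genes called higher and 0 to 105 lower: 3 and 105 without Ctl MSC 1, 11 and 33 without MSC-TPr 1, 0 and 1 without MSC-TPr 2, and 0 without any of the others. Members and list genes called stayed at 0, and the median of the members ran from −0.30 to 0.042. Log2 fold changes that changed direction ran from −0.86 to 0.087 for Acvr1b, −0.0028 to 0.53 for Acvr2a, −0.031 to 0.73 for Bmp1, −0.54 to 0.47 for Bmp4, −0.12 to 0.042 for Bmpr1a, −0.79 to 0.43 for Gdf9, −0.64 to 0.79 for Tgfb2, −0.19 to 0.49 for Tgfb3, −0.17 to 0.37 for Tgfbr3 and −0.29 to 0.13 for Tgfbrap1. Of the 28 tested members that met the rule for values in every library, the other 18 kept their direction under every alternative listed, Tgfbr2, Acvr1, Gdf7, Smad6, Smad7, Grem1, Id2 and Id3 among them. The members named here do not overlap between the labels, so leaving out libraries could not have turned their direction. Low counts limit Inhbb, Gdf9, Id4 and Fst, and also Inha, Bmp6, Bmp8a and Acvr2b.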
